A study of Mus musculus with 6 samples.

Results

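The solute carrier family 25 (SLC25) encodes the mitochondrial carriers, proteins of the inner mitochondrial membrane that exchange nucleotides, phosphate, carboxylates, amino acids, cofactors and metals between the cytosol and the matrix. They were taken as every row of the deposited expression table whose gene name is Slc25a followed by a number, 44 of 21307 rows, with no measured value used in the choice. Most carriers work as antiporters: the ADP/ATP carriers bring ADP into the matrix in exchange for the ATP that leaves it. A few family members sit elsewhere, Slc25a17 in peroxisomes and Slc25a46 in the outer mitochondrial membrane. In B-cell precursors, as in other dividing cells, carriers link oxidative metabolism to the synthesis of nucleotides, lipids and proteins in the cytosol.

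RNA was sequenced from cultured bone marrow B cells of pre-tumoral mice aged 6 to 8 weeks on a C57BL/6 x 129S1/SvlmJ background. All 6 libraries share 1 genotype in the labels, Eµ-myc;Prmt5F/FCreER: a Myc transgene under an immunoglobulin heavy chain enhancer, loxP-flanked Prmt5 (the gene of an arginine methyltransferase) and a tamoxifen-activated Cre, with its promoter not stated in these sources. The 3 libraries of the 4-OHT group come from cells given 50 nM 4-hydroxytamoxifen for 24 h to delete Prmt5, and the 3 ethanol libraries from cells given its solvent; the cells were then washed and kept for 5 more days, with interleukin 7 at 5 ng/µl as the stated growth condition. The titles call the ethanol libraries WT and the 4-OHT libraries PT, and the design text speaks of wild-type mice, which the genotype given for all 6 libraries contradicts; the groups here follow the treatment label.

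The table gives 1 FPKM value (fragments mapped to a gene, scaled to transcript length and sequencing depth) per gene and condition, so there is no replicate check, no test and no error for any difference below. Rows were compared if they averaged 1 FPKM or more over the conditions and neither value was 0, as did 34 of the 44 carriers and 10856 rows in all. To form the log2 ratio, 1 was added to each FPKM value and 4-OHT was divided by ethanol, which understates differences at low levels; folds are on this scale. Prmt5 stood at 41.6 FPKM with ethanol and 5.71 FPKM with 4-OHT, 6.35-fold lower. The carriers were read against marker lists, whose part in the results was not tested. All 12 B cell markers (11 under median-of-ratios scaling) had lower values in 4-OHT, summing to 2297 and 1087 FPKM with ethanol and 4-OHT. All compared markers of neutrophils (8 of 8, 364 and 3441 FPKM), macrophages (9 of 9, 689 and 1509 FPKM) and stroma (9 of 9, 39.1 and 642 FPKM) had higher values. The same held for megakaryocytes (10 of 10, 238 and 884 FPKM) and for mast cells and basophils (8 of 8, 73.4 and 262 FPKM). Of T and NK cell markers 6 of 7 were higher (29.6 and 53.7 FPKM). The macrophage marker Lyz2 was not compared, being listed at 3835 FPKM with ethanol and 0 in 4-OHT. With Lyz2 the macrophage list summed to 4524 and 1509 FPKM. A culture with fewer cells of a type and a culture with less RNA of a gene per cell cannot be told apart in these bulk values.

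As a family the carriers stood close to the rest of the table. Their median log2 ratio was -0.10, against -0.07 for all compared rows, and 18 of 34 (52.9%) were lower in 4-OHT, against 55.1% of all. Of the 34, 27 lay within 1.5-fold (79.4%, against 67.7% of all compared rows). At least 1.5-fold lower were 5 carriers, or 14.7%, near the 12.8% of all compared rows that were so: Slc25a15, Slc25a33, Slc25a23, Slc25a40 and Slc25a42. At least 1.5-fold higher were Slc25a24 and Slc25a20, 5.88% of the carriers against 19.5% of all rows. Past 2-fold were Slc25a24 alone on the higher side (10.4% of all rows were) and Slc25a15 alone on the lower side (2.58% of all rows were). With a pseudocount of 0.1 FPKM 4 carriers were at least 2-fold lower (4.21% of all rows were), and with median-of-ratios scaling 0 were (1.99% of all rows were).

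**Figure D1:**
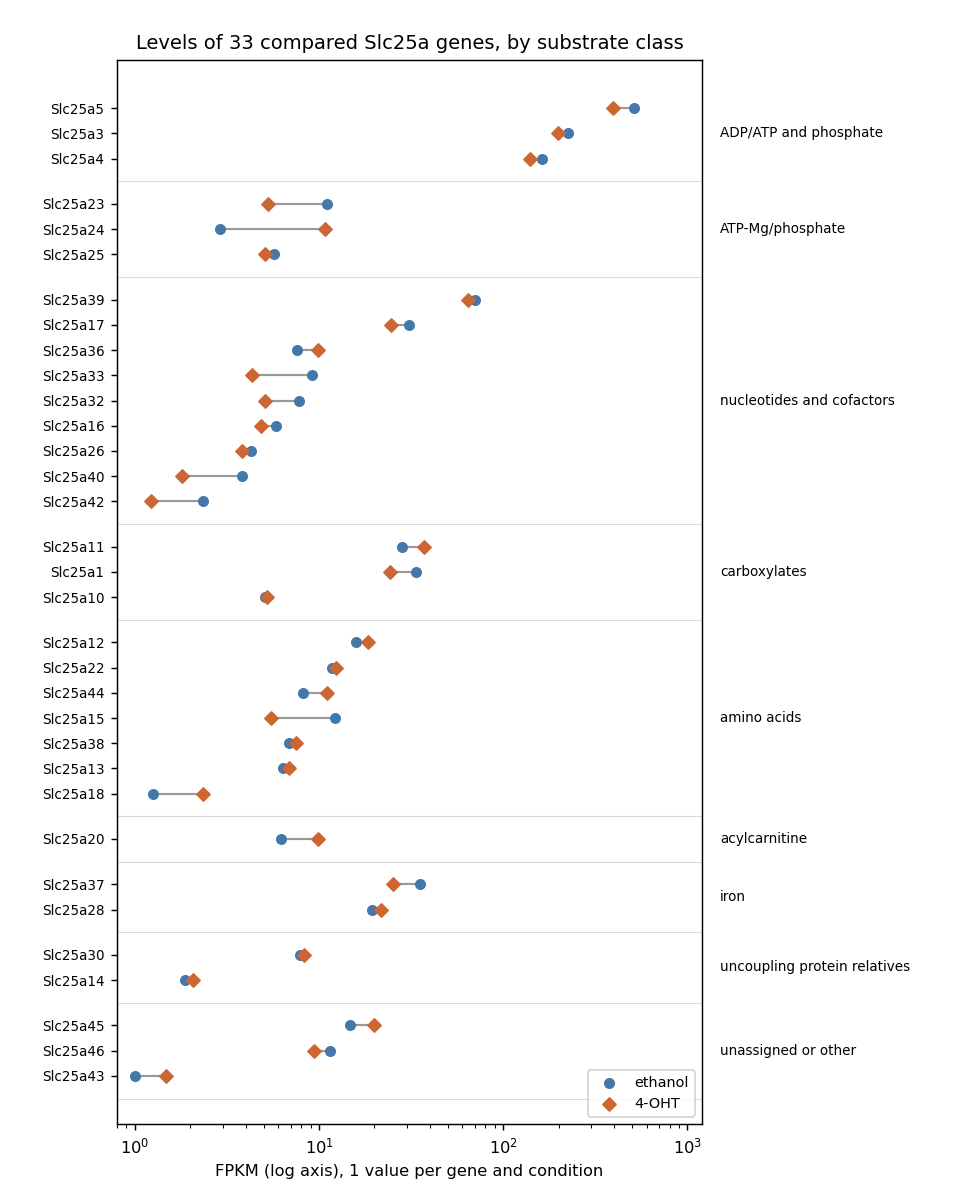
FPKM on a log axis for 33 of the 34 compared carriers, grouped by substrate class; circles are ethanol, diamonds 4-OHT, 1 pooled value per gene and condition with no error. Slc25a5, Slc25a3 and Slc25a4 stand above 100 FPKM in both conditions, and the longest line is that of Slc25a24, at 2.89 FPKM with ethanol and 10.8 FPKM with 4-OHT.

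The carriers of ADP, ATP and phosphate held most of the family's transcripts. These supply the ATP synthase with its substrates, and Slc25a5 (ANT2, the ADP/ATP carrier typical of dividing cells; chromosome X, 34335647 to 34338801 on mm9) was the most abundant carrier, at 513 FPKM with ethanol and 394 FPKM with 4-OHT. The phosphate carrier gene Slc25a3 (chromosome 10, 90579323 to 90586708) stood at 225 and 199.5 FPKM. Slc25a4 (ANT1, typical of heart and muscle; chromosome 8, 47292698 to 47296363) stood at 162 and 139.6 FPKM. All 3 were lower in 4-OHT, by 1.30-fold, 1.13-fold and 1.16-fold, with a median log2 ratio of -0.21. The 559 compared rows that averaged 100 FPKM or more had a median of -0.19, near that of these carriers.

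Together with Slc25a31 (ANT4, the ADP/ATP carrier of the testis, below 0.1 FPKM in both conditions) they made up 69.0% of the summed carrier FPKM with ethanol and 65.6% in 4-OHT, 899.8 of 1305 FPKM and 733 of 1117 FPKM. The remaining 40 carriers summed to 405 and 384 FPKM. The balance of the ADP/ATP carriers was nearly the same in both conditions: Slc25a5 made up 76.0% of the sum of Slc25a4 and Slc25a5 in ethanol and 73.8% in 4-OHT. An Slc25a5 pseudogene exists, and reads may have been split between such copies. Of the 11 compared genes that work with these carriers, 8 were lower (median -0.29), including the ATP synthase subunit genes Atp5b (684 and 507 FPKM) and Atp5a1 (406 and 304 FPKM). Counts of lower genes in this and the later lists stand beside the 55.1% of all compared rows that were lower. Counts of higher genes stand beside the 4875 of 10856 rows that were higher. The share lower rose with level, from 44.5% of rows averaging 1 to 5 FPKM to 59.9% of those averaging 100 FPKM or more.

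The calcium-regulated ATP-Mg/phosphate carriers, which adjust the adenine nucleotide content of the matrix, differed most from one another. Slc25a23 (chromosome 17, 57183134 to 57199286) stood at 11.0 FPKM with ethanol and 5.27 FPKM with 4-OHT, 1.91-fold lower (log2 ratio -0.94). Slc25a24 (chromosome 3, 108926067 to 108971327) stood at 2.89 and 10.8 FPKM, 3.02-fold higher (log2 ratio 1.60), above 97.1% of all compared rows. Slc25a25 (chromosome 2) stood at 5.67 and 5.06 FPKM, a log2 ratio of -0.14. Slc25a41, the relative without the calcium-binding domain, was listed at 0.0113 and 0 FPKM. The sum of the 3 calcium-regulated genes was 19.55 FPKM with ethanol and 21.1 FPKM with 4-OHT, and within it the share of Slc25a24 was 14.8% and 51.0% and that of Slc25a23 was 56.3% and 25.0%. Slc25a23 was therefore the most abundant of these genes in ethanol and Slc25a24 in 4-OHT, beside the marker lists of other cell types that were higher in the same condition.

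**Figure D2:**
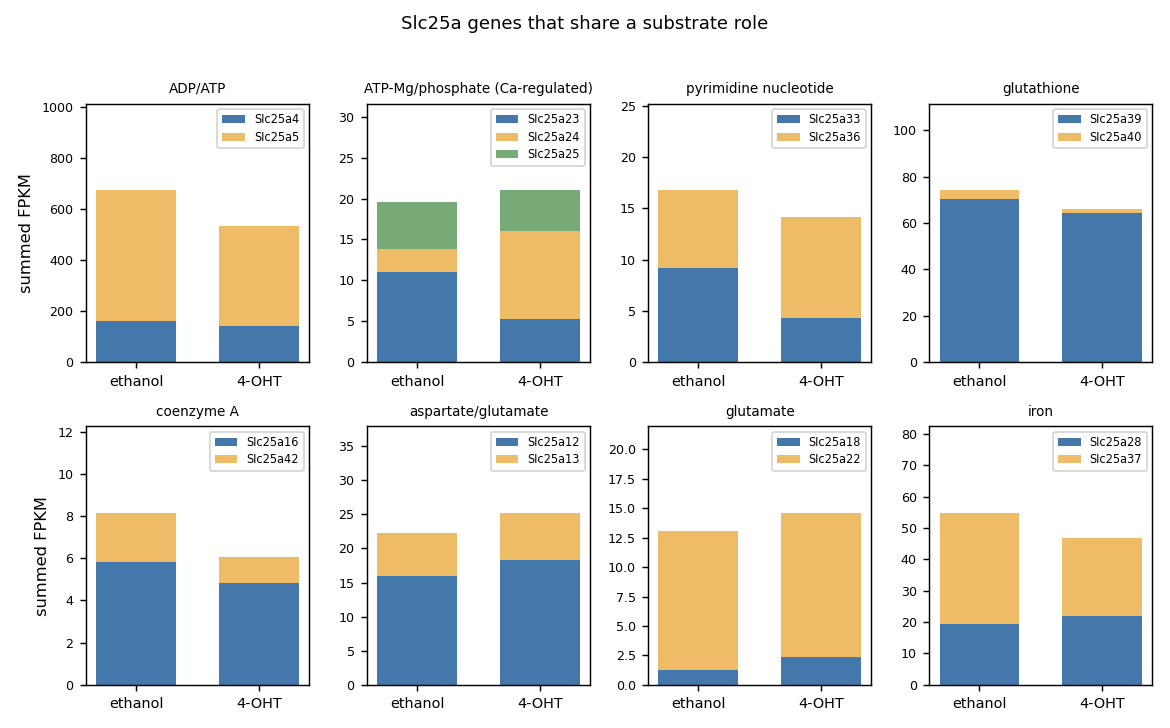
Summed FPKM (axis from 0, a different scale in each panel) of carriers that share a substrate role, in ethanol and 4-OHT, 1 pooled value per gene and condition. In the ATP-Mg/phosphate panel the sums are near each other, at 19.55 and 21.1 FPKM, and the share of Slc25a24 is 14.8% in ethanol and 51.0% in 4-OHT; in the pyrimidine nucleotide panel Slc25a36 holds 45.4% and 69.5%.

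Of the 10 carriers of nucleotides and cofactors, 9 were lower in 4-OHT (8 under median-of-ratios scaling), against 55.1% of all compared rows. The class median was -0.27. At least 1.5-fold lower were 3 of the 10, Slc25a33, Slc25a40 and Slc25a42, against 12.8% of all compared rows. The pyrimidine nucleotide carriers, which bring building blocks for mitochondrial DNA and RNA into the matrix, went opposite ways. Slc25a33 (chromosome 4, 149118145 to 149148376) stood at 9.17 FPKM with ethanol and 4.32 FPKM with 4-OHT, 1.91-fold lower. Slc25a36 (chromosome 9, 96977430 to 97011460) stood at 7.63 and 9.86 FPKM, a log2 ratio of 0.33, the 1 member of the class with a higher value. The share of Slc25a33 in their sum was 54.6% in ethanol and 30.5% in 4-OHT. Among 10 compared genes of mitochondrial nucleotides and DNA, 8 were lower (median -0.28), all within 2-fold. The most abundant were Ssbp1, of the mitochondrial single-strand DNA-binding protein, at 33.4 and 20.7 FPKM and Polg, of the mitochondrial DNA polymerase, at 22.7 and 24.5 FPKM, and the lowest ratio was that of the helicase gene Twinkle, listed as Peo1, at 15.97 and 7.95 FPKM.

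The promoters of both pyrimidine nucleotide carriers, and that of the citrate carrier gene Slc25a1, hold the E-box CACGTG, the sequence that MYC and other basic helix-loop-helix factors can bind. Each is shown as 80 bases of the minus strand upstream of the annotated start, from RefSeq on GRCm38.p6, with the E-box in capitals. Only windows that do not overlap the annotated gene are shown. Among them, members of 1 pair that differ in ratio share the E-box. The lines are Slc25a33 at chr4:149774268-149774347 (bases 80 to 1 before the start), Slc25a36 at chr9:97111186-97111265 (bases 224 to 145) and Slc25a1 at chr16:17928390-17928469 (bases 250 to 171).
Slc25a33: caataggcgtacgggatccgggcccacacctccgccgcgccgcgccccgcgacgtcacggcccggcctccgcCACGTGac
Slc25a36: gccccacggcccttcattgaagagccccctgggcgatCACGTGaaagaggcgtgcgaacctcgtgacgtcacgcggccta
Slc25a1: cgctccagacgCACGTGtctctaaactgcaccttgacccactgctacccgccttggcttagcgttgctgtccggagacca
The E-box spans bases 8 to 3 before the start of Slc25a33, bases 187 to 182 before that of Slc25a36 and bases 239 to 234 before that of Slc25a1.

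Windows from 250 bases before to 50 bases after an annotated start were matched by symbol for 28 of the 34 compared carriers. CACGTG, which reads the same on both strands, was found for 6 of the 28 (21.4%), against 12.3% of the 7886 genes of compared rows with a window and 8.09% of all 27025 genes of the promoter table. Besides those shown, the 6 were Slc25a13, Slc25a14 and Slc25a15, whose 80-base windows overlap the annotated gene. The E-box lies 267 bases downstream of the outermost annotated start for Slc25a15 and 6 bases downstream for Slc25a13. The place of these E-boxes therefore depends on the start used. The ratios of the 6 lay on both sides of 0, from -1.03 for Slc25a15, -0.94 for Slc25a33 and -0.47 for Slc25a1 to 0.09 for Slc25a14, 0.10 for Slc25a13 and 0.33 for Slc25a36. The amino acid response motif TGATGNAA, searched on both strands, was found for 0 of the 28 and for 2.85% of the genes of compared rows. A match is a string of letters and not a measured binding site. Myc itself stood at 402 FPKM with ethanol and 213.5 FPKM with 4-OHT. All 6 libraries carry a Myc transgene, so these values may hold its transcripts as well as those of the endogenous gene.

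The cofactor carriers differed in level by over 10-fold. Slc25a39, a glutathione carrier gene (chromosome 11, 102264295 to 102268831), was the most abundant, at 70.5 FPKM with ethanol and 64.2 FPKM with 4-OHT, a log2 ratio of -0.13. Its relative Slc25a40 (chromosome 5, 8422850 to 8454793) stood at 3.83 and 1.80 FPKM, 1.72-fold lower, and made up 5.15% of their sum in ethanol and 2.73% in 4-OHT. The glutathione enzymes in the cytosol and beyond went the other way, with 5 of 6 higher (median 0.80): the reductase gene Gsr stood at 16.1 and 56.1 FPKM and the peroxidase genes Gpx1 and Gpx4 at 341 and 632 FPKM and at 121 and 212 FPKM.

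Slc25a42, the coenzyme A carrier gene (chromosome 8, 72708239 to 72736180), stood at 2.34 and 1.22 FPKM, a log2 ratio of -0.59 that is just past 1.5-fold and was inside it under median-of-ratios scaling, at -0.54. Slc25a16, a relative linked to coenzyme A, stood at 5.83 and 4.84 FPKM. Slc25a32, which carries folates and FAD, stood at 7.77 and 5.06 FPKM, 1.45-fold lower and just short of the limit; with a pseudocount of 0.1 FPKM, under quantile normalization and in the authors' deposited fold changes it was past it. The folate enzymes of the matrix had larger differences: Shmt2, which splits serine to glycine and a one-carbon unit, stood at 277 and 106 FPKM, Mthfd1l at 55.7 and 23.3 FPKM, and Mthfd2 at 121 and 66.7 FPKM. Of the 5 compared folate enzyme genes 4 were lower, with a median of -0.85.

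The other carriers of this class were nearer to equal. Slc25a17, the peroxisomal carrier of cofactors, stood at 30.8 and 24.5 FPKM (log2 ratio -0.32). Slc25a26, which brings in S-adenosylmethionine for mitochondrial methylation, stood at 4.26 and 3.80 FPKM, while Mat2a, which makes S-adenosylmethionine, stood at 111 and 73.95 FPKM and Mat2b, of its regulatory subunit, at 39.1 and 35.9 FPKM. S-adenosylmethionine is also the methyl donor of PRMT5. In the list of enzymes of these cofactors 8 of 10 genes were lower (median -0.15), 1 of them past 2-fold: Ppcdc, of coenzyme A synthesis, at 14.5 and 6.40 FPKM.

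**Figure D3:**
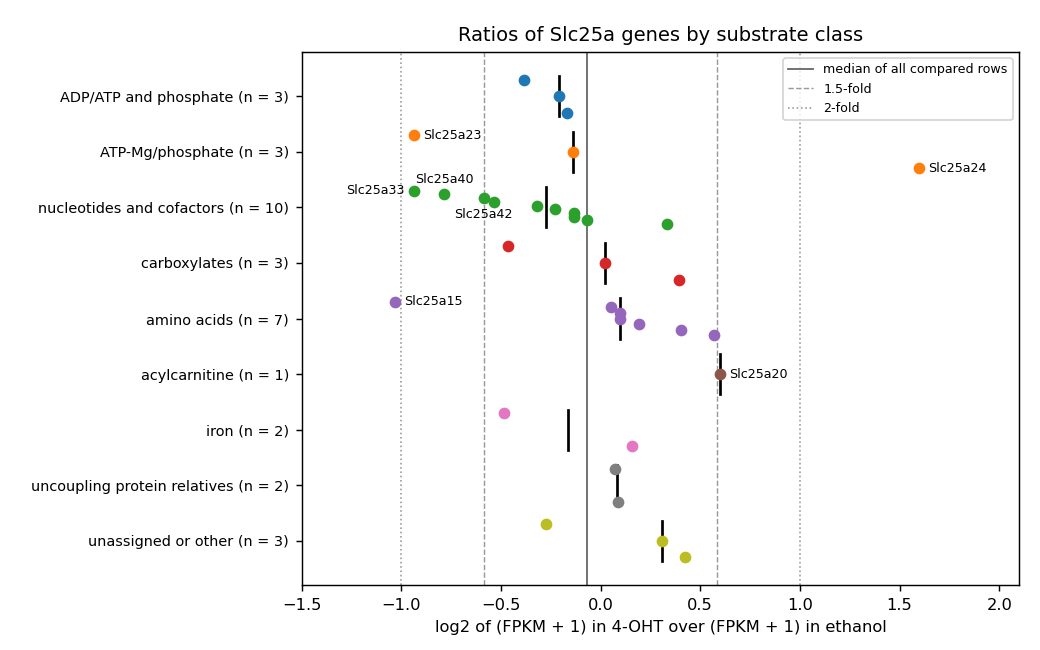
Log2 ratio of each compared carrier (points) by substrate class, with the class median (black bar), the median of all compared rows (grey line, -0.07) and the limits of 1.5-fold (dashed) and 2-fold (dotted). Named points lie past 1.5-fold; 9 of 10 carriers of nucleotides and cofactors lie below 0 and 6 of 7 amino acid carriers above it. Of all 10856 compared rows, 5981 were lower and 4875 higher.

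The amino acid carriers had the opposite balance, with 6 of 7 higher in 4-OHT, where 4875 of all 10856 compared rows were higher. Their median log2 ratio was 0.10, and Slc25a22, Slc25a38, Slc25a13 and Slc25a12 had ratios of only 0.05 to 0.19. The lowest ratio of the whole family was also among the amino acid carriers. Slc25a15, the ornithine carrier gene (chromosome 8, 23486022 to 23509093), stood at 12.2 FPKM with ethanol and 5.45 FPKM with 4-OHT, 2.04-fold lower (log2 ratio -1.03), and only 2.32% of all compared rows had a lower ratio. Ornithine is made in the matrix from glutamate on the route shared with proline, and genes of that route were lower as well: Aldh18a1, which encodes the enzyme of its first step, stood at 94.6 and 39.7 FPKM and Pycr1, the proline-forming reductase gene, at 7.17 and 1.11 FPKM. Glud1, the glutamate dehydrogenase gene, stood at 64.5 and 71.4 FPKM. Oat, which joins ornithine to this route, stood at 59.7 and 52.6 FPKM. Arg2, the mitochondrial arginase gene that makes ornithine and urea from arginine, was higher, at 1.92 and 6.12 FPKM. Across this list 5 of 8 compared genes were lower (median -0.28), 2 of them past 2-fold, and 1 was past 2-fold on the higher side. The other carriers of ornithine and basic amino acids, Slc25a2 and Slc25a29, were below 1 FPKM in both conditions.

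The carriers that exchange aspartate for glutamate are regulated by calcium and form part of the malate-aspartate shuttle, which passes reducing power into mitochondria. Slc25a12 (aralar; chromosome 2, 71112352 to 71205611) stood at 15.9 and 18.4 FPKM and Slc25a13 (citrin; chromosome 6) at 6.38 and 6.90 FPKM, so their shares in the sum were almost alike, 71.4% and 72.7% for Slc25a12. The third carrier of the shuttle, the oxoglutarate/malate carrier gene Slc25a11, was also higher in 4-OHT, at 28.0 and 37.2 FPKM. The 4 enzyme genes of the shuttle had lower values: Mdh2 stood at 338 and 234 FPKM, Mdh1 at 106.5 and 81.4 FPKM, Got2 at 86.0 and 59.7 FPKM and Got1 at 56.6 and 38.6 FPKM, with a median log2 ratio of -0.52. Carriers and enzymes of 1 shuttle thus lay on opposite sides of 0, each carrier and each enzyme within 1.5-fold.

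Of the other amino acid carriers, Slc25a44, which carries branched-chain amino acids, stood at 8.16 and 11.1 FPKM (log2 ratio 0.40). Bcat2, the mitochondrial transaminase gene for these amino acids, was higher too, at 20.7 and 26.1 FPKM, and Bcat1, the cytosolic one, was lower, at 22.8 and 9.66 FPKM; Bckdha, of the dehydrogenase that follows, stood at 41.3 and 40.7 FPKM. Slc25a22 and Slc25a18 carry glutamate; Slc25a22 stood at 11.8 and 12.3 FPKM and held 90.4% of their sum in ethanol and 84.0% in 4-OHT. Slc25a18 stood at 1.25 and 2.34 FPKM, a log2 ratio of 0.57, which was past 1.5-fold with a smaller pseudocount, with median-of-ratios scaling and in the authors' deposited fold changes. Under quantile normalization its ratio was 0.27, and with a minimum of 5 FPKM it was not compared. Slc25a38, which brings in glycine for heme synthesis, stood at 6.91 and 7.45 FPKM.

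The carboxylate carriers lay on both sides of 0. Slc25a1 (chromosome 16, 17925304 to 17928312), whose citrate feeds the synthesis of fatty acids and sterols in the cytosol, stood at 33.7 FPKM with ethanol and 24.1 FPKM with 4-OHT, 1.38-fold lower. Acly, which splits that citrate, stood at 77.9 and 59.8 FPKM, a log2 ratio of -0.38. Slc25a11 (chromosome 11, 70457699 to 70460495) was 1.31-fold higher. Slc25a10, the dicarboxylate carrier gene, stood at 5.11 and 5.20 FPKM, a ratio of 0.02 that was below 0 under quantile normalization, and the oxodicarboxylate carrier gene Slc25a21 is listed at 0 in both conditions. The class sums were 66.9 and 66.5 FPKM. Among the 14 enzyme genes of citrate and oxoglutarate 10 were lower (median -0.28). The isocitrate dehydrogenase subunit gene Idh3b stood at 96.9 and 67.9 FPKM, and Idh1, the cytosolic isocitrate dehydrogenase gene, was the 1 past 2-fold, at 40.05 and 88.0 FPKM.

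Slc25a20, the carnitine/acylcarnitine carrier gene that fatty acids depend on to reach oxidation in the matrix (chromosome 9, 108564429 to 108586972), stood at 6.20 and 9.93 FPKM, 1.52-fold higher, and was just inside 1.5-fold under quantile normalization. Cpt1a, which encodes the enzyme that makes acylcarnitine on the outer membrane, stood at 9.43 and 26.7 FPKM, and Crat, the acetyltransferase gene for carnitine, at 4.90 and 10.7 FPKM. Cpt2, which acts after the carrier in the matrix, stood at 8.11 and 9.30 FPKM, whereas the beta-oxidation genes Hadha and Hadhb stood at 44.1 and 36.5 FPKM and at 55.05 and 43.1 FPKM. The list had 6 of 9 genes higher and a median of 0.18. Cpt1b, 1 of the 6, was read from a row that also holds Chkb and BC090627, so its value may be theirs. The compared macrophage (9 of 9, without Lyz2) and neutrophil (8 of 8) markers were higher in the same comparison, and their part in these values was not tested.

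The mitoferrins bring iron into the matrix for heme and iron-sulfur clusters. Slc25a37 (mitoferrin 1, the form that erythroid cells depend on; chromosome 14, 69859908 to 69903160) stood at 35.5 FPKM with ethanol and 25.1 FPKM with 4-OHT, 1.40-fold lower. Slc25a28 (mitoferrin 2; chromosome 19, 43738292 to 43749371) stood at 19.4 and 21.8 FPKM, a log2 ratio of 0.16. Slc25a37 was the more abundant in both conditions, with 64.6% of their sum in ethanol and 53.5% in 4-OHT. Of 12 erythroid markers 9 were matched, without Hba-a1, Hba-a2 and Hbb-b1, and their sum, 89.2 and 91.5 FPKM, was mostly the transferrin receptor gene Tfrc (85.9 and 79.1 FPKM). The other 3 that could be compared were higher in 4-OHT: the transcription factor gene Gata1, also expressed in megakaryocytes and mast cells, stood at 1.67 and 7.46 FPKM, the globin gene Hbb-b2 at 0.953 and 2.44 FPKM and the erythropoietin receptor gene Epor at 0.466 and 2.13 FPKM. The erythroid heme synthesis gene Alas2 (0.0105 and 0.0894 FPKM) and the anion exchanger gene Slc4a1 (0.00334 and 0.0116 FPKM) were below 0.1 FPKM, and no matched marker is listed at 0. The part of these cells in the mitoferrin values was not tested. In the heme and iron-sulfur list 8 of 12 genes were lower (median -0.18). The most abundant were the iron-sulfur cluster genes Iscu (62.5 and 68.9 FPKM) and Glrx5 (63.75 and 51.0 FPKM), while Alas1, the heme synthesis enzyme of non-erythroid cells, stood at 23.4 and 75.4 FPKM.

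The compared relatives of the uncoupling proteins and carriers without a settled substrate lay within 1.5-fold. Slc25a30 stood at 7.86 and 8.32 FPKM and Slc25a14 at 1.88 and 2.06 FPKM; the ratio of Slc25a14 (0.09) was below 0 under quantile normalization. Slc25a45 stood at 14.7 and 19.96 FPKM, a log2 ratio of 0.42. Slc25a46, which takes part in mitochondrial fusion and fission, stood at 11.5 and 9.36 FPKM. Slc25a43 stood at 1.00 and 1.48 FPKM, nearest of the compared carriers to the minimum, and its ratio of 0.31 was also below 0 under quantile normalization. The 10 carriers not compared had values up to 0.862 FPKM: Slc25a2, Slc25a21, Slc25a27, Slc25a29, Slc25a31, Slc25a34, Slc25a35, Slc25a41, Slc25a47 and Slc25a48. Nearest below the minimum were Slc25a35, at 0.816 and 0.789 FPKM, and Slc25a29, at 0.862 and 0.594 FPKM. Slc25a41 and Slc25a48 are each listed at 0 in 1 condition. The listed locus of Slc25a2 (chromosome 18, 37089939 to 38001526) spans 911588 bases, far longer than the gene, so its value may hold reads of other genes.

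Family members that carry other names fell outside the choice, and their values are given for comparison. Ucp2, an uncoupling protein relative that is abundant in immune cells, stood at 239 and 169.5 FPKM, beside 225 and 199.5 FPKM for Slc25a3. Mtch1 and Mtch2, outer membrane relatives, stood at 91.6 and 66.3 FPKM and at 50.9 and 37.6 FPKM. Slc25a51, the NAD carrier gene listed as Mcart1, stood at 33.0 and 26.4 FPKM, and Slc25a53, listed as Mcart6, at 6.98 and 2.92 FPKM (log2 ratio -1.03). All 5 that could be compared were lower in 4-OHT, with a median of -0.46, and Slc25a53 was past 2-fold. Ucp1 and Ucp3 were at or below 0.110 FPKM.

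Carriers reach the inner membrane through the TOM pore, small TIM chaperones and the TIM22 insertase. Of 16 compared genes of this route 14 were lower in 4-OHT, against 55.1% of all compared rows. All lay within 2-fold, and the median was -0.33, against -0.07 for all compared rows. Of compared rows averaging 20 to 100 FPKM 59.7% were lower (median -0.14), and of those averaging 100 FPKM or more 59.9% (median -0.19). At least 1.5-fold lower were 4 of the 16, as were 12.8% of all compared rows. The share was 14.3% at 20 to 100 FPKM and 18.2% at 100 FPKM or more. Among the 4 was Tomm5, a small subunit of the pore, at 173 and 108 FPKM. The others were the small chaperone genes Timm8a1 at 46.7 and 26.9 FPKM, Timm9 at 37.05 and 22.1 FPKM and Timm10 at 58.7 and 36.7 FPKM. The small chaperone genes Timm13 and Timm8b had log2 ratios of -0.28 and -0.20. The most abundant members were Tomm5 and the receptor gene Tomm20 (182 and 130.5 FPKM), and Timm22, the insertase gene itself, stood at 7.93 and 7.20 FPKM. Timm10b, another small chaperone gene, and Tomm6 had ratios of 0.08 and 0.03.

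**Figure D4:**
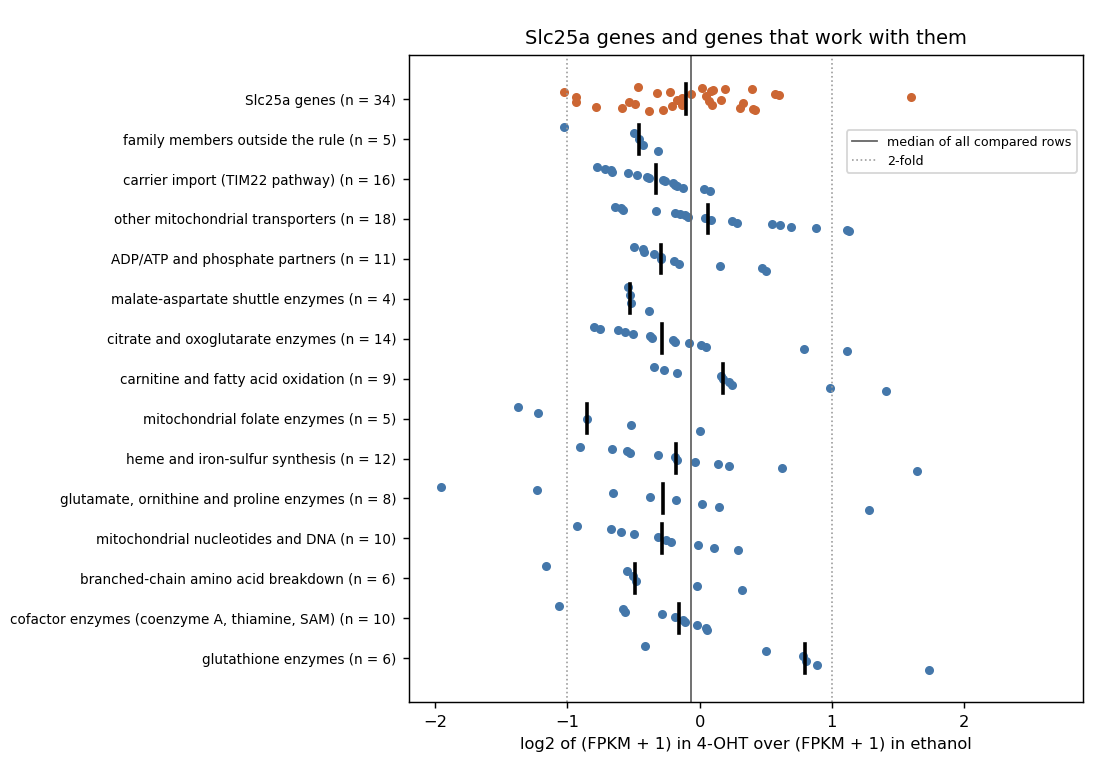
Log2 ratios (points) and medians (black bars) of the compared carriers, in the top line, of family members with other names, and of 13 lists of genes that import carriers, transport beside them or use what they carry; the grey line is the median of all compared rows (-0.07) and dotted lines mark 2-fold. The folate enzymes (median -0.85) and the shuttle enzymes (-0.52) lie lowest, and the glutathione enzymes highest (0.80).

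Across the 13 lists, 86 of 129 compared entries were lower and 43 higher in 4-OHT, where 55.1% of all compared rows were lower. That share was 44.5% of rows averaging 1 to 5 FPKM, 57.8% at 5 to 20 FPKM and 59.7% at 20 to 100 FPKM. At least 2-fold lower were 6 (4.65%, against 2.58% of all compared rows) and at least 2-fold higher 7 (5.43%, against 10.4%). Some partners differed more than their carrier: the folate carrier gene Slc25a32 had a log2 ratio of -0.53 beside -1.37 for Shmt2, and the acylcarnitine carrier gene Slc25a20 one of 0.60 beside 1.41 for Cpt1a. For ATP-Mg/phosphate and the pyrimidine nucleotides the carriers of 1 substrate differed from each other instead, by 2.53 and 1.27 on the log2 scale.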

How the data were processed

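Libraries were made with a TruSeq RNA kit and sequenced in pairs, per the labels' protocols; CASAVA, TopHat2 2.0.9, Cufflinks 2.1.1 and build mm9 are named in the submitters' processing notes. The FPKM values were computed and deposited by the authors, 1 per gene and condition. How the 3 libraries of a condition were combined or scaled is not stated there, and depth is unknown. The deposited log2 fold change equals log2 of the 4-OHT over the ethanol FPKM within 0.01 in all 15756 rows above 0 in both. From the deposited FPKM the log2 ratio was computed with a pseudocount of 1 and a minimum mean of 1 FPKM, with limits of 1.5-fold and 2-fold. Its arithmetic alone was checked, on made-up 4-OHT values set at known ratios to the ethanol values, without noise. No test was run, because the table holds no replicates.

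Locus starts count from 0 (6341 of 18848 loci then equal the length of the RefSeq gene of the same name, against 437 if from 1), so 1 was added. RefSeq GRCm38 served for names, promoters and this check alone. Substrate classes follow textbook roles. Members, lists and classes were chosen with earlier results of these data known; the groups of carriers that share a role and the 2 promoter motifs were chosen after values were seen. All carriers were described, as were the 2 most abundant compared members of each list of partner genes and those past 2-fold, except 1 carrier and 1 list gene that are not reported here by name, and some other list genes were chosen after their values were seen. Alternatives were pseudocounts of 0.1 and 0.5, a minimum of 5 FPKM or none, quantile and median-of-ratios scaling, the authors' deposited fold changes, and leaving out rows of merged genes. The work ran in Python 3.11.15 with pandas 2.3.3, numpy 2.4.6 and, for figures, matplotlib 3.10.9.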

Additional observations from a re-analysis of the deposited data

How the results depend on the processing

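Only quantile and median-of-ratios scaling could change the direction of a ratio, because the other alternatives leave the order of the 2 values as it is. Of the 34 compared carriers, 30 kept their direction under both scalings. The other 4, all within 1.5-fold and among them Slc25a10, Slc25a14 and Slc25a43, did not. Slc25a15, Slc25a23, Slc25a24 and Slc25a33 stayed past 1.5-fold throughout, with Slc25a24 at 1.5 to 1.9 and Slc25a15 at -1.16 to -0.96. Slc25a40 did so wherever it was compared, but with a minimum of 5 FPKM it was not compared. The count at least 2-fold lower was 1 as reported (2.58% of all compared rows were so). It was 4 with a pseudocount of 0.1 FPKM (4.21% of all) and with the authors' deposited fold changes (4.44%). With a pseudocount of 0.5 FPKM (3.28%) or quantile normalization (3.37%) it was 2, and with median-of-ratios scaling 0 (1.99%). The count at least 1.5-fold lower, 5, was 3 with a minimum of 5 FPKM, where 28 carriers were compared (13.5% of all compared rows were so). It was 6 with a pseudocount of 0.1 FPKM (15.8%), quantile normalization (15%) and the authors' deposited fold changes (16%), and 4 with median-of-ratios scaling (9.9%). The count at least 1.5-fold higher, 2, was 1 under quantile normalization (17.4% of all). It was 3 with pseudocounts of 0.1 FPKM (21.6%) and 0.5 FPKM (20.6%), median-of-ratios scaling (21.2%) and the authors' deposited fold changes (22%). Quantile normalization also moved the class medians of the carboxylate carriers to -0.072, of the uncoupling protein relatives to -0.077 and of the carriers without a settled substrate to -0.021, and the acylcarnitine carrier to 0.57, inside 1.5-fold; the cause was not tested. Median-of-ratios scaling moved the median of all compared rows from -0.07 to 0.00. Both scalings kept the sign of the median of each of the 13 lists of partner genes, whose entries lower in 4-OHT, 86 of 129, were 88 under quantile normalization and 82 under median-of-ratios scaling. Leaving out rows of merged genes could change no carrier, because 0 carrier rows were merged. No paired analysis was possible because no value per library is in the table used, and no library could be left out for the same reason. Without counts no precision can be stated, and values of a few FPKM carry the least.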

Other observations

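Among 18 compared mitochondrial transporters of other families, 10 were higher and 8 lower in 4-OHT, with a median log2 ratio of 0.07. Genes of related function lay on both sides of 0. Of calcium uptake, Mcu, the uniporter pore listed as Ccdc109a, stood at 2.72 FPKM with ethanol and 5.84 FPKM with 4-OHT, Mcub, its relative listed as Ccdc109b, at 5.42 and 13.0 FPKM, and Micu2, a calcium-sensing subunit listed as Efha1, at 28.3 and 25.4 FPKM. Tspo, an outer membrane protein abundant in macrophages and steroid-making cells, stood at 64.1 and 139.9 FPKM; it and Mcub were the 2 of 18 at least 2-fold higher, as were 10.4% of all compared rows. By the mean of the conditions the most abundant were the outer membrane pore genes Vdac2, at 115 and 119 FPKM, and Vdac1, at 114 and 99.7 FPKM. Their relative Vdac3 stood at 115 and 76.6 FPKM. In 4-OHT alone Tspo had the highest value of this list. Sfxn1, the mitochondrial serine transporter gene, stood at 35.3 and 22.3 FPKM, and its relatives Sfxn3 and Sfxn5 were higher, at 6.38 and 9.77 FPKM and at 2.46 and 4.58 FPKM. The macrophage markers, 9 of 9 compared, were higher in the same comparison, and their part in these values was not tested.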
